A study of Mus musculus with 8 samples.

Results

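Genes of resident macrophages and of complement C1q, 10 in all, were followed in mouse white quadriceps, the pale, mostly glycolytic part of the thigh muscle. They are C1qa, C1qb, C1qc, Lyz2, Mrc1, Cd163, Adgre1, Csf1r, Retnla and Pf4, and they were picked by name out of 54091 rows of the deposited expression table, with their differences between the genotypes already known, so every difference given for them describes these libraries and is no test. All 10 were among the 15657 genes whose mean normalized count reached 10. The Cre group held 4 libraries (replicates 5 to 8) of mice labelled CKM Cre, an Acot2 knockout in muscle, in which the promoter of muscle creatine kinase drives the recombinase. The Loxp group held 4 libraries (replicates 1 to 4) of mice labelled Loxp/Loxp, without Cre. All were males of 11 to 14 weeks kept for 7 days on food with 60% fat, and muscle was taken in the morning. Cre was present in the knockout alone, so its own effect and that of losing Acot2, a mitochondrial acyl-CoA thioesterase, cannot be told apart. The CKM promoter is known from skeletal and heart muscle, and the labels place the knockout in muscle, not in macrophages. The comparison bears on which resident immune transcripts of muscle differ when that enzyme is missing under a high lipid supply.

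Resident macrophages of skeletal muscle sit in the connective tissue around fibres and vessels, clear dying cells and debris, and depend on signals through the CSF1 receptor. They are a major source of complement C1q in many tissues. C1q is built from chains encoded by C1qa, C1qb and C1qc, binds antibody complexes and dying cells, and with the proteases C1r and C1s starts the classical complement pathway. Lyz2 encodes the lysozyme of myeloid cells, Adgre1 the surface antigen F4/80, and Csf1r the receptor for CSF1 and IL-34. Mrc1 encodes the mannose receptor CD206 and Cd163 the receptor for haemoglobin bound to haptoglobin. Retnla encodes the secreted protein RELM-alpha, a marker of alternative activation in mice. Pf4 encodes the chemokine CXCL4, best known from platelets and also made by resident macrophages of the mouse.

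The C1q genes lie side by side on the minus strand of chromosome 4 in GRCm38, C1qb at 136880129 to 136886187, C1qc at 136889804 to 136893065 and C1qa at 136895917 to 136898803, with 3616 and 2851 bases between neighbours and 18675 bases in all. The other members are spread over 7 more chromosomes: Lyz2 on chromosome 10 (117277331 to 117282321, minus strand), Mrc1 on 2 (14229392 to 14332057, plus), Cd163 on 6 (124304656 to 124330527, plus), Adgre1 on 17 (57358691 to 57483527, plus), Csf1r on 18 (61100598 to 61132149, plus), Retnla on 16 (48842551 to 48844461, plus) and Pf4 on 5 (90772435 to 90773383, plus). Promoters of 7 of the 10 genes could be matched in the RefSeq set (GRCm38.p6), all but those of Adgre1, C1qa and Csf1r. The windows ran from 250 bases before to 50 bases after the start site. That start site is the one of the promoter set and can differ from the gene bounds given above. The upstream windows of C1qc, Retnla, Mrc1 and Lyz2 reach into the genes as bounded above, so distances hold for the promoter set's start only. Letters bound by factors that myeloid cells are known for were searched on both strands: GAGGAAGT and the core GAGGAA inside it (PU.1), TGCTGAC (a MAF half-site) and TTGCGCAA (C/EBP). The 250 bases upstream of 5 members are shown 5′ to 3′ on the gene's strand, 4 of those that moved most closely together and Cd163, which stood apart, with matches in capitals.
C1qb, chr4:136886201-136886450, minus strand: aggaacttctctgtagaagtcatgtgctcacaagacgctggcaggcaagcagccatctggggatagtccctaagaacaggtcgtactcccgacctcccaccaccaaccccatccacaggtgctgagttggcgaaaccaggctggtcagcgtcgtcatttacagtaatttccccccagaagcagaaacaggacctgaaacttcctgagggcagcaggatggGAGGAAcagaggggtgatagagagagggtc
C1qc, chr4:136892915-136893164, minus strand: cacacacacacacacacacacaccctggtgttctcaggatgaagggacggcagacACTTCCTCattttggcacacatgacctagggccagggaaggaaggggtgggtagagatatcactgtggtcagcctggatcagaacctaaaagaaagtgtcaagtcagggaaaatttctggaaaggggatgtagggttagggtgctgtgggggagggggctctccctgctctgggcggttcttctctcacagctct
Retnla, chr16:48842359-48842608, plus strand: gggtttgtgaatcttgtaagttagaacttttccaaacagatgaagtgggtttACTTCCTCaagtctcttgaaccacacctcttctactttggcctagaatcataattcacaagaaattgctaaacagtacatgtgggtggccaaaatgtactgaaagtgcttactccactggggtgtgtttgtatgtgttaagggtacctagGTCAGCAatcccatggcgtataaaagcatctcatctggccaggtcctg
Pf4, chr5:90772185-90772434, plus strand: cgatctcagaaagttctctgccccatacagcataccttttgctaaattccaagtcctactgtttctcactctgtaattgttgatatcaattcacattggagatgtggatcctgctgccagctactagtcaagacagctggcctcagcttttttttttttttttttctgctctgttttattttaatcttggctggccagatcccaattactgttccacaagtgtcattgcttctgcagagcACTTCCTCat
Cd163, chr6:124304401-124304650, plus strand: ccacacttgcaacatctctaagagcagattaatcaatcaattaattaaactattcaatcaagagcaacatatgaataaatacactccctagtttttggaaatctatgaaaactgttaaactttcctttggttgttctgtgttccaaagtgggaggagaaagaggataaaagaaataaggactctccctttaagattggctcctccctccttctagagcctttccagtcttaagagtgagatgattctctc
The longer PU.1 letters stood on the reverse strand in C1qc (195 bases upstream of the start), Retnla (198 bases) and Pf4 (10 bases), 3 of the 7 matched members, against 3.20% of 32851 promoters. Its core was present in 5 of the 7, those 3 together with C1qb (30 bases upstream) and Mrc1, against 28.3% of all promoters. The MAF letters stood in Retnla alone (48 bases upstream, 4.67% of all promoters), and the C/EBP letters in none of the 7 (0.183% of all). None of the searched letters occurred in the window of Cd163, nor in that of Lyz2, which moved closely with the C1q genes. The matches therefore did not separate the members that moved together from Cd163. A match is a string of letters and no evidence of binding.

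Sequencing was deep, with 55284020 to 109101280 reads per library, so that the floor of 3 reads equals a normalized count of 2.04 to 3.87. Acot2 had normalized counts of 325, 273, 256 and 354 in Cre replicates 5 to 8 and of 2179, 3348, 4165 and 2166 in Loxp replicates 1 to 4, which fits the labels in every library. It was the only one of the 15657 genes past an adjusted p of 0.05 (limma log2 difference -3.24 ± 0.20 SE, adjusted p 4.72e-06). Loxp 3 and Loxp 4 stood apart from the other libraries on the leading principal component (scores of -55.2 and -56.1, the others from -0.561 to 38.6), and Cre 8 held heart transcripts, with 1124 normalized counts of Myl7 against at most 4.14 elsewhere. The tissue label was borne out by myofibre transcripts: Myh4, the fast myosin heavy chain of glycolytic fibres, averaged 2706180 in Cre and 3181150 in Loxp. In addition, all 30 genes of a macrophage and monocyte core list passed the level needed for a test. Whether the libraries are of separate animals is not stated in the labels, so the spread given is that between these samples, which may be technical.

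All 10 members had a higher estimate in Cre libraries, by a median of 0.71 on the log2 scale (1.63-fold), beside a median of 0.0026 over all genes tested, of which 50.3% had a higher estimate in Cre. In bulk muscle RNA, more cells of a type and more RNA per cell cannot be told apart. The largest differences belonged to Pf4 (2.34-fold), Retnla (2.21-fold) and C1qa (2.14-fold), and the smallest to Cd163 (1.04-fold). In 4 of the 10, C1qa, Adgre1, Retnla and Pf4, every Cre library lay above every Loxp library, as it did in 6.06% of all genes tested (in 7.06% every Cre library lay below). By limma 0 of the 10 passed an adjusted p of 0.05 (0.00639% of all genes did), and 0 by voom, while 9 had an unadjusted p under 0.05 in favour of Cre by either tool (13.6% of all genes by limma). Since the genes were chosen on this contrast, nothing is read from those counts.

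**Figure D1:**
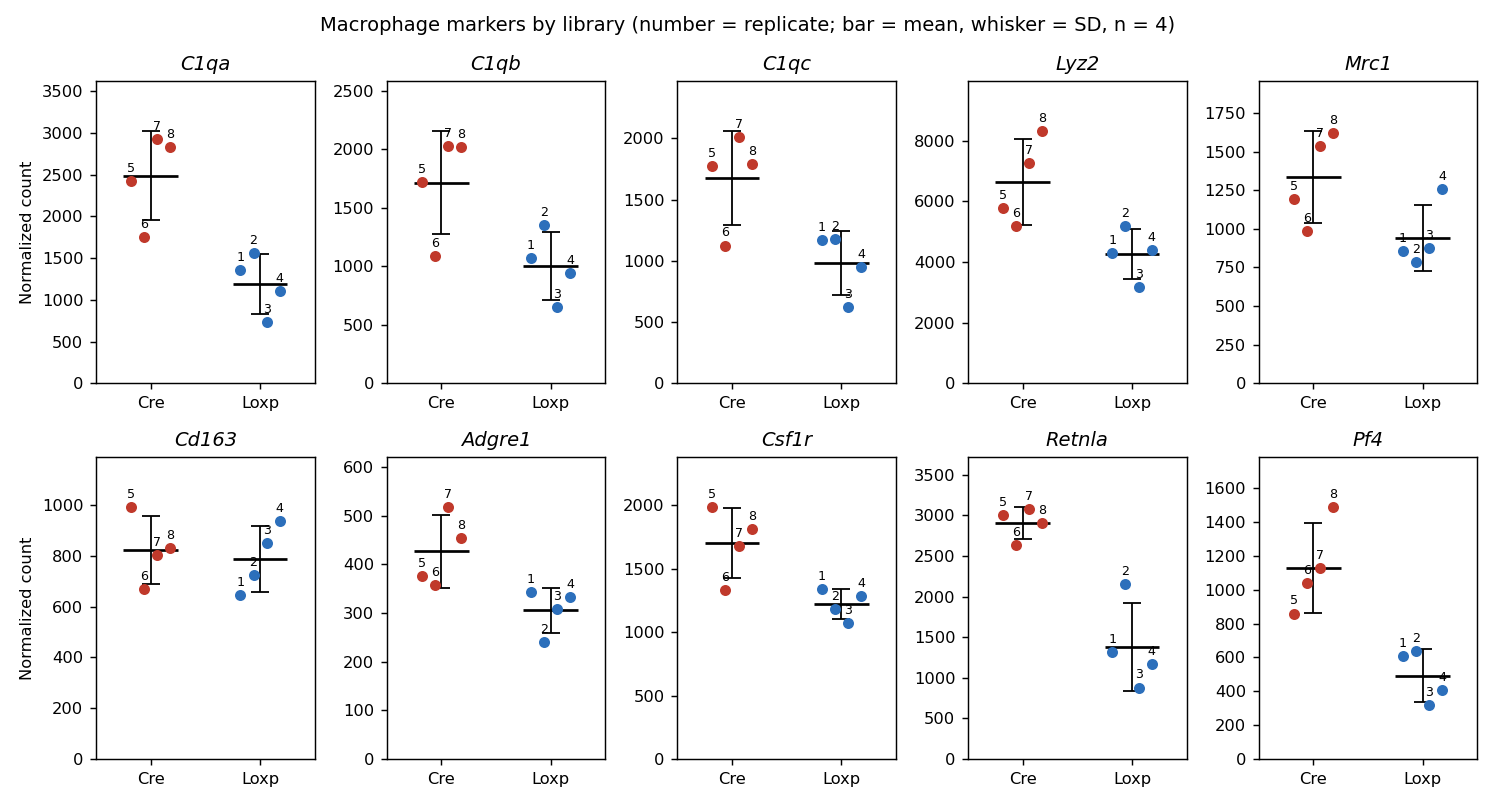
Normalized counts (y axis, linear, from 0) of the 10 macrophage genes in each Cre and Loxp library; points carry the replicate number, bars are means and whiskers SD (n = 4 each). The groups are separate for C1qa, Adgre1, Retnla and Pf4, Cre 6 lies lowest in its group for 9 of the 10 genes, all but Pf4, and the groups lie over each other for Cd163.

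The C1q chains were 1.71 to 2.14 times as abundant in Cre libraries. C1qa had 2431, 1759, 2931 and 2832 normalized counts in Cre 5 to 8, against 1358, 1558, 729 and 1100 in Loxp 1 to 4. The groups did not overlap, and Loxp 3 was the lowest library and Cre 6 the lowest of the Cre group. The log2 difference was 1.10 ± 0.22 (SE, n = 4 each). C1qb had 1724, 1091, 2027 and 2017 in Cre libraries and 1073, 1352, 652 and 945 in Loxp libraries. Here Cre 6 lay inside the Loxp range, and the difference was 0.78 ± 0.23. C1qc had 1773, 1125, 2008 and 1792 in Cre libraries and 1172, 1182, 623 and 949.7 in Loxp libraries. Cre 6 again lay among the Loxp libraries, below Loxp 1 and Loxp 2, and the difference was 0.78 ± 0.22.

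The proportions of the chains varied within a group, and C1qa took a larger part in Cre libraries. The ratio of C1qb to C1qc ran from 0.97 to 1.13 in Cre libraries and from 0.92 to 1.14 in Loxp libraries. The ratio of C1qa to C1qb normalized counts was 1.41, 1.61, 1.45 and 1.40 in Cre libraries against 1.27, 1.15, 1.12 and 1.16 in Loxp libraries, a mean of 1.47 ± 0.0978 in Cre and 1.18 ± 0.0634 in Loxp (SD, n = 4 each). The ratio of C1qa to C1qc was 1.37, 1.56, 1.46 and 1.58 in Cre against 1.16, 1.32, 1.17 and 1.16 in Loxp. Neither ratio overlapped between the groups, and Cre 6, the Cre library with the least C1q, had the highest ratio of C1qa to C1qb. The ratio of C1qb to C1qc was 1.02 ± 0.0730 in Cre and 1.03 ± 0.0961 in Loxp, a difference smaller than its spread. On the log2 scale the C1qa ratios differed by 0.32 (to C1qb) and 0.31 (to C1qc) and the ratio of C1qb to C1qc by -0.0066. These ratios come from the contrast on which the genes were chosen and have no test. The chains shared none of their 50-base windows, so a read of that length matches no more than 1 of them.

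**Figure D2:**
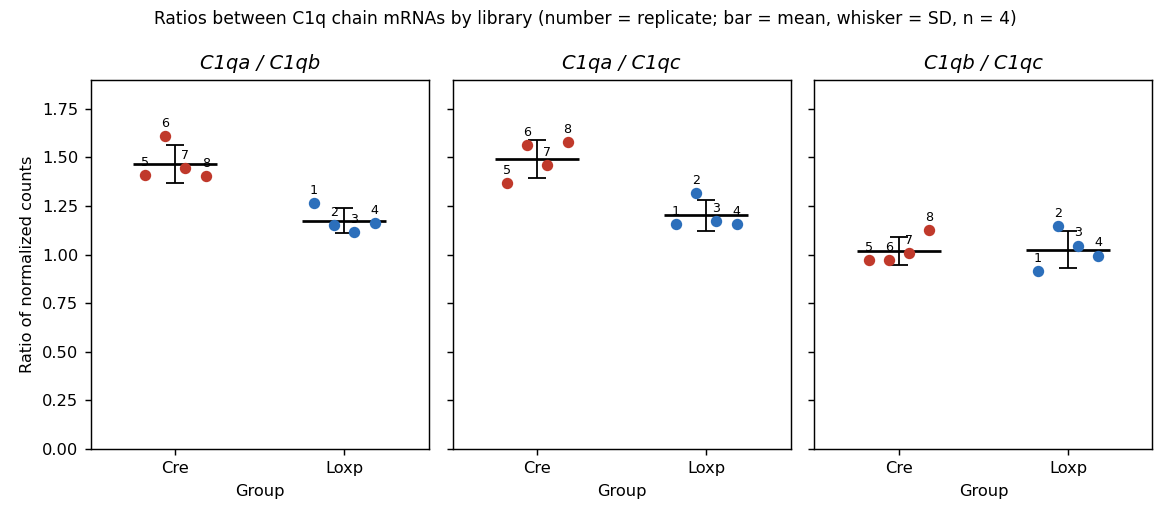
Ratios between the normalized counts of C1q chain mRNAs (y axis, from 0) in each Cre and Loxp library; points carry the replicate number, bars are means and whiskers SD (n = 4 each). C1qa relative to C1qb or C1qc is higher in all 4 Cre libraries than in any Loxp library, and C1qb relative to C1qc overlaps.

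Lysozyme mRNA had the highest counts of the members, and also the highest per kilobase, as given below. Lyz2 had 5792, 5175, 7253 and 8308 normalized counts in Cre libraries and 4310, 5184, 3166 and 4380 in Loxp libraries. Cre 6 lay just below Loxp 2, which was the only crossing, and the log2 difference was 0.64 ± 0.17. Its paralog Lyz1, the lysozyme of Paneth cells, had 389 ± 85.6 in Cre and 239.5 ± 51.5 in Loxp (difference 0.70 ± 0.21, limma adjusted p 0.0849). Lyz1 stood at 5.18 to 7.10% of Lyz2 in Cre libraries and at 5.31 to 6.17% in Loxp libraries. Of the 50-base windows of Lyz2, 15.4% also occur in Lyz1, and 16.1% the other way, so the split of reads between the lysozymes is uncertain.

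With all 8 libraries and no trend removed, the surface receptors differed less than the C1q chains and Lyz2. This order of estimates was not kept with the length and GC trend described below removed and Loxp 3 and Loxp 4 left out. There Adgre1 had 0.54 and Csf1r 0.43, beside 0.61 for C1qa, 0.34 for C1qb, 0.38 for C1qc and 0.41 for Lyz2. Adgre1 had 376, 357, 518 and 455 normalized counts in Cre libraries against 343, 240.1, 308 and 333 in Loxp libraries. The groups were separate by a narrow gap between Cre 6 and Loxp 1, and the log2 difference was 0.47 ± 0.17. Csf1r had 1986, 1328, 1680 and 1809 in Cre and 1341, 1183, 1074 and 1284 in Loxp. Only Cre 6 and Loxp 1 crossed, and the difference was 0.47 ± 0.14. Of the exon bases of Csf1r, 15.1% lie opposite exons of Hmgxb3, and since the strand setting of the counting is not given, reads from both cannot be told apart there. No exon of another member overlapped a different gene.

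Mrc1 had 1192, 985, 1536 and 1623 normalized counts in Cre libraries and 855, 787, 874 and 1259 in Loxp libraries. Loxp 4 was high for this gene, above Cre 5 and Cre 6, and the log2 difference was 0.50 ± 0.18. Cd163 had 993, 668, 805 and 831 in Cre and 645, 724, 850 and 939 in Loxp. The groups lay over each other, and the difference was 0.06 ± 0.16. Loxp 3 and Loxp 4, low for C1q, were above Loxp 1 and Loxp 2 for Cd163. The sign of this difference turned without Loxp 1 or without Cre 5 (-0.030 and -0.031), so no direction is given for the haemoglobin receptor.

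The largest differences were those of Retnla and Pf4. Retnla had 3003, 2631, 3082 and 2903 normalized counts in Cre libraries against 1321, 2150, 879 and 1174 in Loxp libraries. The Cre values lay close together, all above the highest Loxp library, Loxp 2, and the log2 difference was 1.15 ± 0.21. Pf4 had 860.0, 1038, 1130 and 1489 in Cre and 609.9, 638, 318 and 405 in Loxp. The groups did not overlap, and the difference was 1.22 ± 0.22. Among relatives of these genes, Retn, the resistin of fat cells, averaged 1189 ± 605 in Cre and 935 ± 539 in Loxp. Ppbp, another platelet chemokine, averaged 18.9 ± 4.18 in Cre and 25.6 ± 17.4 in Loxp, and Retnlg was under the mean of 10 needed for a test.

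Divided by exon length, the members kept the same order of level in both groups. The mean normalized count per kilobase in Cre and in Loxp was 5039 and 3237 for Lyz2, 4849 and 2306 for Retnla, and 2393 and 1141 for C1qa. Below these came C1qb (1576 in Cre and 924 in Loxp), Pf4 (1566 and 684) and C1qc (867 and 508). The receptors were lowest, with 295 in Cre and 211 in Loxp for Csf1r, 209 and 148 for Mrc1, 151 and 145 for Cd163 and 132 and 94.6 for Adgre1. Within the Cre group the order of neighbours held in all 4 libraries except for Lyz2 over Retnla and C1qb over Pf4 (2 of 4 each) and Cd163 over Adgre1 (3 of 4).

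Over the 8 libraries most of the markers moved together. Pearson's r over the 45 pairs of members had a median of 0.75 (Spearman's rho 0.76), with 20 pairs above 0.8, where all pairs of tested genes had a median of -0.002 and 4.80% of them lay above 0.8. These are descriptions over 8 libraries that share the group difference and the length trend described below. With every value taken as a deviation from its group mean, the median over the members was 0.47, with 8 pairs above 0.8 (median -0.002 and 3.52% above 0.8 over all pairs). Without the libraries farthest from the median of the members' mean level, Loxp 3 and Cre 8, the median r of values not centred was 0.64, beside 0.75.

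The C1q chains were the tightest set, with r of 0.975 to 0.981 over 8 libraries and 0.961 to 0.980 around the group means. Lyz2, Retnla and Pf4 joined them: the 15 pairs of these 6 genes, grouped after their values were seen, ran from 0.87 to 0.98, and from 0.67 to 0.98 around the group means. Without Loxp 3 and Loxp 4 they ran from 0.64 to 0.95, and with the length and GC trend removed from 0.70 to 0.97. With the trend removed, C1qa with Csf1r and Lyz2 with Mrc1 each had 0.92, above C1qb with Pf4 (0.70). The 6 genes were thus not set apart from the receptors at that setting. Mrc1, Adgre1 and Csf1r were correlated with each other at 0.74 to 0.87, and around the group means at 0.34 to 0.74. Csf1r followed the other members closely (r of 0.89 with their mean), Mrc1 and Adgre1 less so (0.72 and 0.71). For Mrc1 this depended on the same settings. Its r with C1qa was 0.67 over 8 libraries, 0.96 without Loxp 3 and Loxp 4 and 0.91 with the trend removed. For Adgre1 with C1qa the values were 0.68, 0.80 and 0.68. Retnla and Adgre1, both without overlap between the groups, had an r of -0.40 around the group means.

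Cd163 was the exception, with a median r of 0.11 with the other 9 members (-0.16 to 0.50). Without Loxp 3 and Loxp 4 that median was 0.70 (0.38 to 0.87), and with the length and GC trend removed from each library it was 0.52. For all 45 pairs the median became 0.78 without those libraries and 0.81 with the trend removed. The mean deviation of the 10 members, each taken from its own mean over the 8 libraries, was 0.35, 0.01, 0.52 and 0.55 in Cre 5 to 8 and -0.25, -0.16, -0.71 and -0.31 in Loxp 1 to 4. On this measure every Cre library lay above every Loxp library, which the choice of genes favours, with Cre 6 closest to the Loxp group and Loxp 3, lowest for 7 of the 10 genes, farthest from the Cre group.

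**Figure D3:**
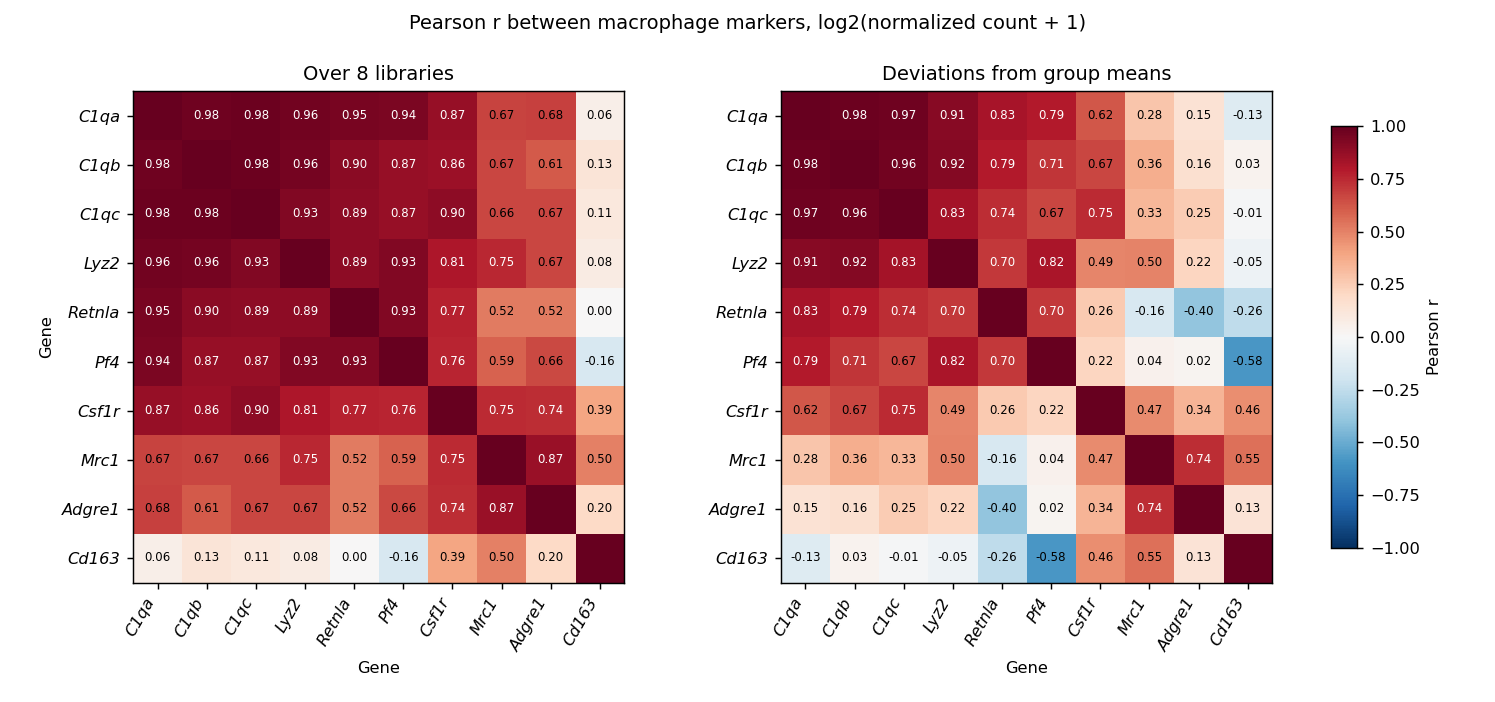
Pearson r between the 10 genes (both axes) on log2(normalized count + 1), over all 8 libraries (left) and on deviations from each group's mean (right); colour runs from -1 to 1. A block of C1qa, C1qb, C1qc, Lyz2, Retnla and Pf4 lies between 0.87 and 0.98 on the left, and the row of Cd163 runs from -0.16 to 0.50.

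The genes outside the list that followed its mean most closely over 8 libraries were Cfp (r 0.99), Marcksl1, Clec10a, Unc93b1, Tuba1c, Fcrls, Ptprj, Clec3b, Wfdc17 and Lyz1 (0.97). In all, 184 of 15647 genes (1.18%) exceeded an r of 0.9. Cfp encodes properdin, which stabilises the convertase of the alternative complement pathway, and averaged 738 ± 174 normalized counts in Cre and 380 ± 76.5 in Loxp (log2 difference 0.95 ± 0.19). Clec10a encodes a galactose-type lectin of macrophages and dendritic cells and averaged 768 ± 225 in Cre and 382 ± 110 in Loxp. Unc93b1, the chaperone of endosomal Toll-like receptors, averaged 1026 ± 195 in Cre and 602 ± 101 in Loxp, and Fcrls, an Fc receptor-like gene of mouse macrophages and microglia, 626 ± 144 in Cre and 338 ± 38.1 in Loxp. Around the group means the closest were Ncf1 (r 0.99), Fam65c, 4930523C07Rik, Fuca2, Epsti1, Snhg18, 4930429P21Rik, Clec4a2, 2700046G09Rik and Plk1 (0.95), and 56 genes (0.358%) exceeded 0.9. Ncf1, a subunit of the phagocyte NADPH oxidase, averaged 169 ± 43.4 in Cre and 111 ± 32.7 in Loxp.

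Exon length ran along with the size of the differences. Retnla (599 bases), Pf4 (721), C1qa (1040), C1qb (1088), Lyz2 (1316) and C1qc (1931) all belonged to the quartile of genes with the shortest merged exons, and Adgre1 (3238), Cd163 (5461), Csf1r (5774) and Mrc1 (6371) did not. Spearman's rho between exon length and difference was -0.87 over the 10 members and -0.41 over 15572 genes with a length. The median difference over all genes was 0.27 in the shortest quartile and -0.20 in the longest. By library, genes of the shortest quartile deviated by 0.11 to 0.17 in Cre libraries, by 0.06 in Loxp 1 and in Loxp 2, and by -0.29 in Loxp 3 and -0.32 in Loxp 4. The members' differences were therefore also fitted with that trend removed and without Loxp 3 and Loxp 4.

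**Figure D4:**
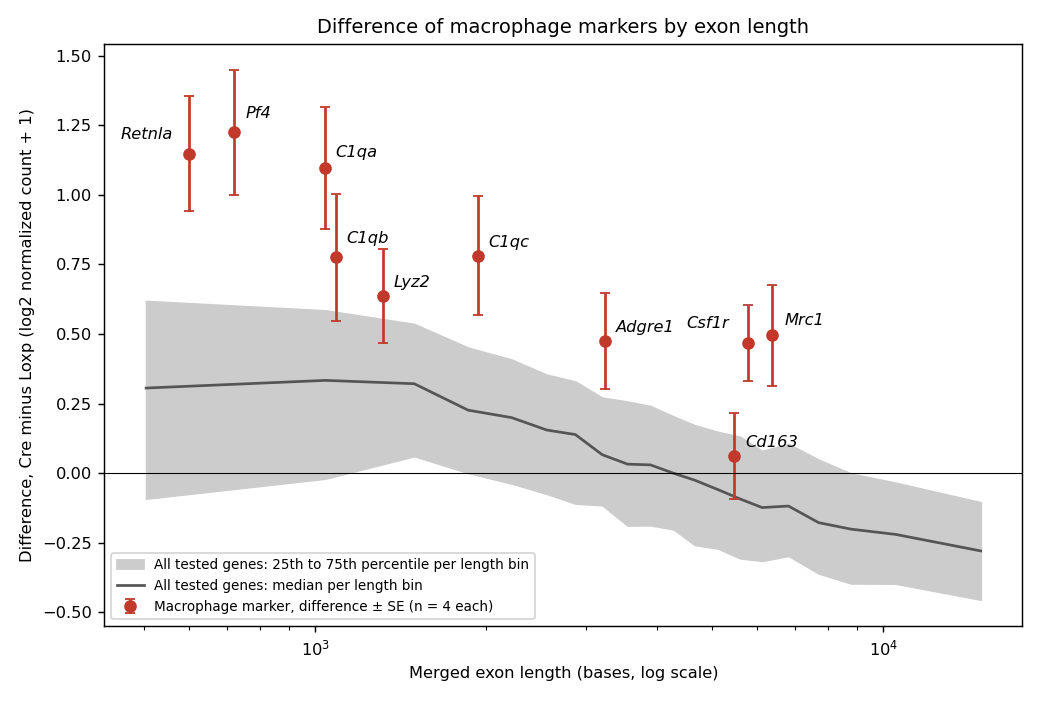
Log2 difference, Cre minus Loxp (y axis), against merged exon length in bases (x axis, log scale); red points are the 10 genes with SE (n = 4 each), the line is the median and the band the 25th to 75th percentile of all tested genes by length. Retnla, Pf4 and C1qa, the shortest, have the largest differences, and Cd163 lies within the band.

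Once the trend with length and GC content had been taken out of each library, the differences of the C1q chains were smaller, 0.73 ± 0.17 for C1qa, 0.45 ± 0.19 for C1qb and 0.52 ± 0.18 for C1qc. Those of Retnla and Pf4 were 0.94 ± 0.16 and 0.97 ± 0.17. Those of the receptor genes were larger or about as large: Mrc1 had 0.64 ± 0.16, Csf1r 0.53 ± 0.12, Adgre1 0.45 ± 0.17 and Cd163 0.16 ± 0.13. Without Loxp 3 and Loxp 4 the differences were 0.75 for C1qa, 0.47 for C1qb, 0.48 for C1qc, 0.78 for Retnla, 0.83 for Pf4 and 0.67 for Mrc1. With both changes at once they were 0.61 for C1qa, 0.34 for C1qb, 0.38 for C1qc, 0.41 for Lyz2, 0.72 for Retnla, 0.74 for Pf4, 0.70 for Mrc1, 0.54 for Adgre1, 0.43 for Csf1r and 0.27 for Cd163. All 10 estimates stayed above 0 under each of these settings. With both changes, Pf4 and Retnla lay above Mrc1 by less than the SE. Across the members, rho with length became -0.47 with the trend removed.

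**Figure D5:**
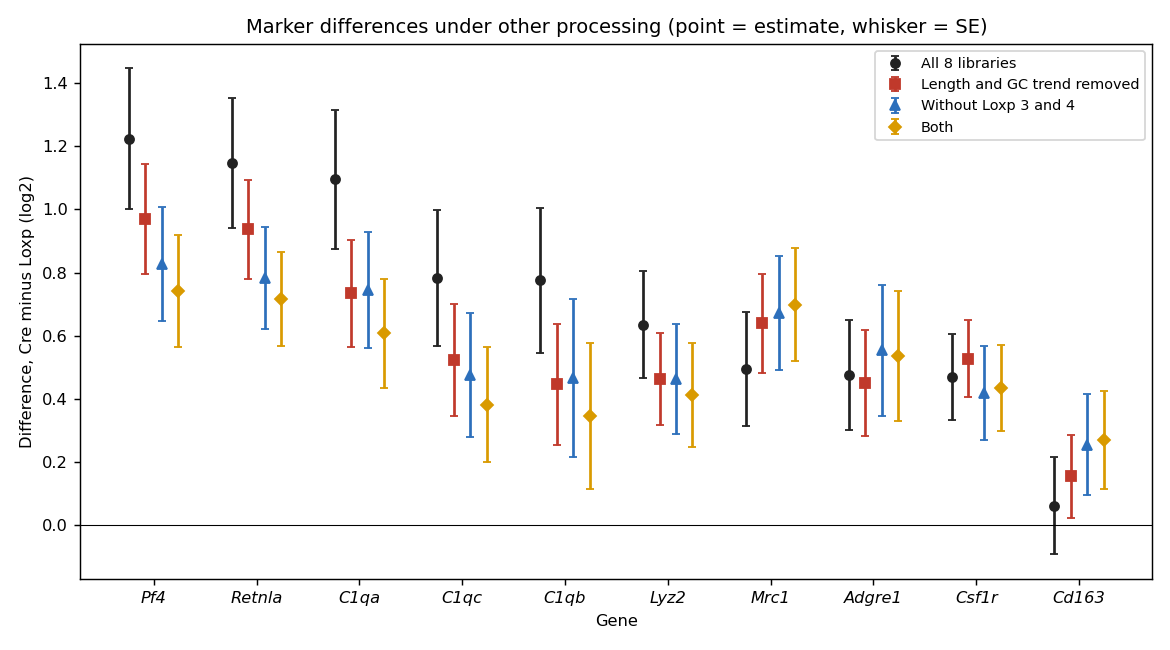
Log2 difference, Cre minus Loxp (y axis), of the 10 genes (x axis) with all 8 libraries, with the length and GC trend removed, without Loxp 3 and Loxp 4, and with both; whiskers are SE. The short genes at the left come down from 1.22 to 0.74 (Pf4) and Mrc1 goes up from 0.50 to 0.70, and every point lies above 0.

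The other macrophage genes were measured to see whether they showed the same direction. Of 30 core genes that are not members, 26 had a higher estimate in Cre, and their median difference was 0.50, or 0.33 without Loxp 3 and Loxp 4 and 0.38 with the trend removed. None passed an adjusted p of 0.05 by limma or by voom, and 14 had an unadjusted p under 0.05 with a higher and 1 with a lower estimate in Cre by either tool, where 13.6% of all tested genes were higher and 13.3% lower at that level. Cd14, the coreceptor for bacterial lipopolysaccharide, averaged 273 ± 45.2 in Cre and 139 ± 39.6 in Loxp, and Ms4a7, a gene of mature macrophages, 137 ± 25.4 in Cre and 46.4 ± 20.8 in Loxp. Lgmn, the lysosomal protease legumain, averaged 3123 ± 402 in Cre and 2217 ± 306 in Loxp. Ctsc, which encodes cathepsin C, differed by less than its SD, with 2758 ± 268 in Cre and 2994 ± 522 in Loxp.

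Of 23 tested genes typical of tissue-resident macrophages, 20 had a higher estimate in Cre (median 0.54, and 0.36 without Loxp 3 and Loxp 4), none passed by limma or voom, while 11 with a higher and 1 with a lower estimate reached an unadjusted p under 0.05 by limma (12 and 1 by voom). Wfdc17 averaged 193 ± 46.0 in Cre and 67.6 ± 35.3 in Loxp, and the chemokine Ccl9 750.4 ± 163 in Cre and 402 ± 106 in Loxp. Cbr2, a carbonyl reductase, averaged 3141 ± 439 in Cre and 2284 ± 604 in Loxp. Sepp1, which encodes selenoprotein P, was lower, with 6459 ± 1039 in Cre and 8546 ± 1037 in Loxp. Lyve1 and Folr2, picked after their values were seen, also had lower estimates, by less than the SE (-0.16 ± 0.17 and -0.20 ± 0.33). They and Sepp1 were the 3 of this list with a lower estimate. Genes of recruited monocytes had a median difference of 0.43 over 18 tested, with 4 higher at that level and 0 lower, but at low levels for several of them, such as S100a4 with 27.4 ± 14.6 in Cre and 7.56 ± 1.95 in Loxp. Of 10 tested genes of alternative activation, to which Retnla is usually counted, 5 had a higher estimate (median 0.08) and 2 reached that level. Over all tested genes, 13.6% were higher in Cre and 13.3% lower at that level by limma. Il4ra, a receptor chain for interleukin 4, averaged 663 ± 71.5 in Cre and 542 ± 29.6 in Loxp, and Stat6, the transcription factor it acts through, 1464 ± 135 in Cre and 1687 ± 270 in Loxp.

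Complement genes other than C1q had smaller differences by their median. Of 37 tested genes of 4 complement lists, 27 had a higher estimate in Cre, with a median of 0.25 (0.16 without Loxp 3 and Loxp 4, 0.17 with the trend removed), none passed by limma or voom, and 9 had an unadjusted p under 0.05 by limma (10 by voom), all higher in Cre. By limma 13.6% of all tested genes were higher in Cre at that level. The partners of C1q in the C1 complex, C1ra and C1s1, averaged 1228 ± 242 and 2438 ± 53.0 in Cre against 1024 ± 128 and 2101 ± 45.7 in Loxp, differences of 0.25 ± 0.16 and 0.21 ± 0.09. The next components, C4b and C3, differed by less than their SE, with -0.01 ± 0.17 and -0.12 ± 0.17. Apart from properdin (Cfp), described above, the receptor for the C5a fragment, C5ar1, averaged 126 ± 23.0 in Cre and 67.3 ± 4.17 in Loxp. Of the regulators, Cd59b averaged 332 ± 30.9 in Cre and 220.0 ± 41.4 in Loxp, and the C1 inhibitor gene Serping1 6003 ± 822 in Cre and 5346 ± 740 in Loxp. Of the 11 tested relatives that share the C1q domain, such as Adipoq and C1qtnf9, 0 passed by limma and 2 were higher at an unadjusted p under 0.05 (3 by voom).

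Csf1, the ligand of the receptor encoded by Csf1r, averaged 841 ± 191 normalized counts in Cre and 826 ± 22.5 in Loxp, a difference smaller than its spread. The gene of its other ligand, Il34, picked after its values were seen, averaged 570.1 ± 26.6 in Cre and 473 ± 72.3 in Loxp, a log2 difference of 0.28 ± 0.14 that was 0.12 without Loxp 3 and Loxp 4 and 0.03 with the trend removed. Over 10 tested ligands and signalling genes the median difference was 0.05, and only Tyrobp, an adaptor that works with the receptor, had an unadjusted p under 0.05 (377 ± 71.7 in Cre and 197 ± 79.6 in Loxp). At that level 13.6% of all tested genes were higher in Cre by limma and 13.3% lower, so nothing is read from that count. Genes of haem and iron handling, in which Cd163 acts, had a median of 0.28 over 9 tested (0.17 without Loxp 3 and Loxp 4). Among them Hmox1, which breaks down haem, averaged 815 ± 125 in Cre and 552 ± 57.6 in Loxp, and the ferritin light chain Ftl1 7497 ± 1263 in Cre and 4513 ± 1161 in Loxp. Slc40a1, the only 1 of the 9 with a lower estimate, averaged 3230 ± 651 in Cre and 3906 ± 382 in Loxp (-0.29 ± 0.14).

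Markers of other cell types were read beside these genes, since several members are not exclusive to macrophages. For platelets, where Pf4 is abundant, 3 of 10 markers reached the level needed for a test, Gp1bb was at 0 in all libraries, and the summed normalized count of the list was 361 to 450.3 in Cre and 326 to 439.9 in Loxp. Of those 3, Itga2b, the platelet integrin chain, was higher in every Cre library than in any Loxp library (124 ± 17.4 in Cre and 78.7 ± 22.3 in Loxp, difference 0.68 ± 0.25, the only 1 of the 3 with an unadjusted p under 0.05), and Gp1ba averaged 241 ± 28.5 in Cre and 269 ± 33.1 in Loxp. The part of platelets in the difference of Pf4 was not tested. For neutrophils, which carry Lyz2, 2 of 10 were tested, Ly6g was at 0, and the sum was 47.7 to 103 in Cre and 13.6 to 143 in Loxp. Mast cell markers had a median difference of 0.80 over 6 tested, all 6 with a higher estimate and 4 at an unadjusted p under 0.05, with sums of 1255 to 1916 in Cre and 696 to 1165 in Loxp. Their median was 0.47 without Loxp 3 and Loxp 4, with 5 of 6 higher, and 0.63 with the trend removed. Fibro-adipogenic progenitors are the stromal cells of muscle, and their markers were higher in all 11 by estimate and in 9 at that level, with a median of 0.35 and sums of 179874 to 217884 in Cre and 137393 to 183323 in Loxp, and none at 0. Clec3b, among the genes most like the members, belongs to this list (5394 ± 1028 in Cre and 3082 ± 593 in Loxp). Beside these counts, 13.6% of all tested genes were higher in Cre at an unadjusted p under 0.05 by limma. Medians were -0.11 for endothelial markers, 0.07 for myofibre, 0.24 for B cell, 0.24 for erythroid, 0.26 for dendritic cell, 0.26 for white adipocyte and 0.63 for T and NK cell markers. Several of these turned or shrank without Loxp 3 and Loxp 4 or with the trend removed: the medians were 0.08 and 0.11 for endothelial, -0.0051 and -0.09 for myofibre, 0.09 and 0.01 for B cell, 0.09 and -0.07 for erythroid, -0.02 and 0.09 for white adipocyte and 0.26 and 0.45 for T and NK cell markers, so no direction is given for the first 5 of them. Heart markers had 0.97, and 0.04 without Cre 6 and Cre 8. The part of mast cells and stromal cells in the members' differences was not tested. Without Cre 8 alone, the library with heart transcripts, the median difference of the members was 0.60, beside 0.71 with all 8 libraries. It was 0.85 without Cre 6 alone and 0.78 without both.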

How the data were processed

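RNA sequencing of total RNA from white quadriceps gave 4 Cre and 4 Loxp libraries. Per the labels' protocols, a Norgen Biotek kit served for extraction and NEBNext Ultra II for the libraries. The submitters' processing notes name STAR and HTSeq, beside cutadapt and FastQC for the reads and DESeq2, and the build GRCm38. Versions, annotation and strand setting were not given in the sources used here. Deposited values are log2, and their form was inferred from the numbers: undoing the log2 and subtracting 1 gives normalized counts that are whole multiples of 1 step per library (100% of values of 1 to 1000 reads within 0.1 read), which returned the reads. They are not divided by length. Of 54091 rows, 27189 were above 0, and 27 gene names turned into dates were restored through Entrez identifiers.

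The test was limma (3.58.1, R 4.3.3) on log2(normalized count + 1) for genes whose mean normalized count reached 10, with trend and robust options and Benjamini-Hochberg adjustment over all 15657 at 0.05. Differences are Cre minus Loxp on that scale, which understates low genes. limma's voom was run on the recovered reads. The step was tried on simulated reads. Whole reads cover counting error only. The members and the 24 gene lists were chosen with earlier results of these data known. Besides the members, Acot2 and paralogs, the text names in each list up to 4 genes of highest mean and up to 2 of smallest p, and the 10 genes most like the members' mean by each measure. Any other gene is marked as picked afterwards or named for an exon overlap, a level of 0 or as a heart transcript. Some genes of the lists are not reported here by name. Likeness is Pearson's r with the mean deviation of the 10 members. Exon lengths and coordinates came from GENCODE vM21 (GRCm38), which need not be the annotation used for counting. The trend was a loess curve of span 0.5 on length and GC content per library. Other filters, pseudocounts, variance models and scalings were tried, as was leaving out libraries and, added after seeing the data, trend removal together with leaving out Loxp 3 and Loxp 4. A comparison of C1q chain proteins was planned and not made. Tables and plots were made in Python 3.11.15 with pandas 2.3.3, numpy 2.4.6, matplotlib 3.10.9 and scipy 1.17.1.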

Additional observations from a re-analysis of the deposited data

Results flagged for a closer look

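The log2 ratio of C1qa to C1qc was 0.40 in Loxp 2, and 0.21 to 0.23 in the other Loxp libraries, so this library stood far from the rest of its group. The ratio of C1qb to C1qc was also highest in Loxp 2 (1.14) among the Loxp libraries. Of 28 groups of 4 values examined in this way 1 was singled out, and chance singles out about 1 in 20.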

How the results depend on the processing

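The median difference of the 10 members kept its direction, within the spread between libraries, under all 21 alternatives (0.54 to 0.85 with single libraries left out). Of 210 values of single members, 204 did so too. Those of C1qa (0.61), C1qb (0.34), Retnla (0.72) and Pf4 (0.74) were smaller by more than that spread with the trend removed and Loxp 3 and Loxp 4 left out, and Cd163 turned to -0.030 without Loxp 1 and to -0.031 without Cre 5 (-0.031 to 0.16 with single libraries left out). The number of genes called, 1 in the fit reported, was 2 with no filter, 2 with equal totals, 7 with plain eBayes, 1201 with sample quality weights, 4 with the trend removed and 2 without Cre 6 and Cre 8. It ran from 1 to 2048 with single libraries left out (1720 without Loxp 1, 2048 without Loxp 2, 2 without Cre 6). Members called were 0, but 7 with quality weights (7.67% of all genes), 6 without Loxp 1 (11.0%) and 6 without Loxp 2 (13.1%). Core genes called were 0, but 9 with quality weights and 0 to 9 with single libraries left out (8 without Loxp 1, 9 without Loxp 2), and complement genes 0, but 3 and 0 to 5 (5 without Loxp 1, 4 without Loxp 2). Members without overlap, 4, were 8 without Cre 6 and Cre 8 and 4 to 8 with single libraries left out, 8 without Cre 6 alone. The share of all genes without overlap was not counted at these settings. Fewer libraries make overlap rarer for any gene, and Cre 6 was the lowest Cre library for most members. Nothing about the members is therefore read from the rise. The median r over the pairs was 0.69 without Cre 6 and Cre 8 and 0.68 to 0.86 with single libraries left out. The causes were not tested. No paired analysis was possible because the groups share no replicate numbers. All 10 members lay far above the floor of 3 reads in every library, and with 4 libraries a group the spread between them is itself known only roughly.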
